A study of Mus musculus with 48 samples.

Results

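Inhibitors of cyclin-dependent kinases (CDKs) and the retinoblastoma family were followed in 3T3-L1 cells through adipocyte differentiation, with and without knockdown (KD) of PPARγ. All probes that the table lists under CDKN1A, CDKN1B, CDKN1C, CDKN2B, CDKN2C, RB1, RBL1 or RBL2 (mouse genes Cdkn1a to Rbl2) were taken, which gave 11 of the 24613 probes of the array, for 8 of its 18991 gene symbols. 3T3-L1 is a mouse fibroblast-like cell line that can turn into fat cells in culture. All cells, controls included, were transfected with siRNA at 50 nM, either a non-targeting pool (control siRNA) or a pool against PPARγ (PPARγ KD). At confluence all cells received dexamethasone (0.25 µM) with isobutylmethylxanthine (IBMX, 0.5 mM) over 48 h, and over the next 48 h rosiglitazone (1 µM), a PPARγ ligand, with insulin (5 µg/ml). RNA was collected on days -2, 0, 1, 2, 3, 4, 5 and 6, counted from the addition of rosiglitazone, in 3 independent biological replicates, which makes 16 groups and 48 arrays. The model is limited to 1 cell line, 1 siRNA pool per arm and a partial loss of the target.

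CDKs drive the cell cycle when bound to cyclins. The Cip/Kip inhibitors (Cdkn1a, or p21; Cdkn1b, or p27; Cdkn1c, or p57) bind cyclin-CDK complexes, whereas the Ink4 inhibitors (Cdkn2b, or p15; Cdkn2c, or p18) bind CDK4 and CDK6 and keep cyclin D away. The retinoblastoma proteins (Rb1; Rbl1, or p107; Rbl2, or p130) hold E2F transcription factors in check until CDKs phosphorylate them. Confluent 3T3-L1 cells re-enter the cell cycle after the hormone cocktail, a round of division known as mitotic clonal expansion, and then leave it as they become fat cells.

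For the target itself, the Pparg probe above background on every array was lower in PPARγ KD in all 24 pairs of arrays with the same day and replicate number, with a difference of -2.34 on the log2 scale (SE 0.04, Bonferroni adjusted p = 9.48e-34). The other Pparg probes, above background on 29 and 8 arrays, were lower in 24 and 21 of the 24 pairs. On single arrays 33.4 to 40.4% of probes were above background (detection p under 0.01), and replicate 3 stood apart with 33.4 to 35.4% against 36.8 to 40.4% in replicates 1 and 2. Of the 12 probes above background in a list of adipocyte markers, 12 were lower in PPARγ KD over days -2 to 6, and 10 of 16 probes for fibroblast and preadipocyte markers were higher. Markers of other cells were scarce, with 1 of 11 macrophage probes (Lyzs) and 0 of 4 endothelial probes above background on at least 3 arrays. In these cultures fewer cells of a type and less RNA per cell cannot be told apart.

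Of the 11 probes, 7 were above background on all 48 arrays, namely both Cdkn1a probes, both Cdkn2c probes and the probes for Cdkn2b, Rb1 and Rbl1. The other 4, both Cdkn1b probes and those for Cdkn1c and Rbl2, were above background on 0 of 48 arrays. Each probe was read on a median of 30.5 to 56 beads. An array probe binds with its own efficiency, so intensities were compared between arrays and never between genes.

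**Figure D1:**
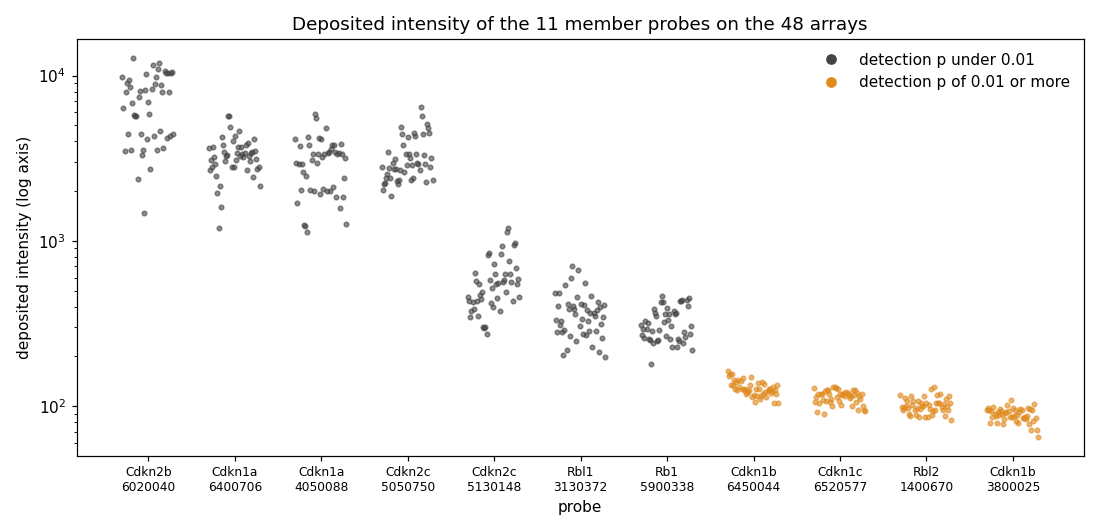
Deposited intensity (log axis) of the 11 probes on the 48 arrays, 1 point per array, coloured by whether the detection p was under 0.01. The 7 probes on the left were above background on 48 arrays each, and the 4 on the right, with intensities of 65.4 to 162.7, on none.

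Each value below is a log2 intensity after background correction and scaling of the arrays, and each difference is PPARγ KD minus control, or a later minus an earlier day, on that scale. Over days -2 to 6, all 7 probes above background were called, that is, their Bonferroni adjusted p did not exceed 0.05, with 5 lower and 2 higher in PPARγ KD. Of all probes, 13.1% were called in this comparison (6.74% lower and 6.37% higher), and of the 10567 probes above background on at least 3 arrays 29.6% were. The median difference of those 10567 probes was 0.02. Rb1 fell by 0.63 (SE 0.04, adjusted p = 4.76e-15), which is 1.55-fold lower. Both Cdkn2c probes fell, by 0.49 (SE 0.03, adjusted p = 4.27e-12) and by 0.60 (SE 0.04, adjusted p = 6.36e-12). Both Cdkn1a probes fell, by 0.30 (SE 0.03, adjusted p = 8.77e-09) and by 0.23 (SE 0.03, adjusted p = 8.03e-06). Cdkn2b was higher by 0.48 (SE 0.03, adjusted p = 3.41e-13). Rbl1 was higher by 0.28 (SE 0.05, adjusted p = 0.0437), close to the threshold and with replicate differences of 0.25, 0.56 and 0.02; the call was lost without replicate 1 (0.29, adjusted p = 1) or replicate 2 (0.14, adjusted p = 1). Day by day, 21 of 88 probe and day values were called, with 0 of 11 probes on day -2 (0.861% of all probes called; 1 member at an unadjusted p under 0.05 and 0 with Benjamini-Hochberg), 1 on day 0 (3.03%), 3 on day 1 (2.91%), 6 on day 2 (8.92%), 3 on day 3 (2.76%), 2 on day 4 (2.4%), 3 on day 5 (3.24%) and 3 on day 6 (3.88%). Over time, 6 of the 11 probes were called under control siRNA (23.5% of all probes) and 5 under PPARγ KD (16.5%).

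**Figure D2:**
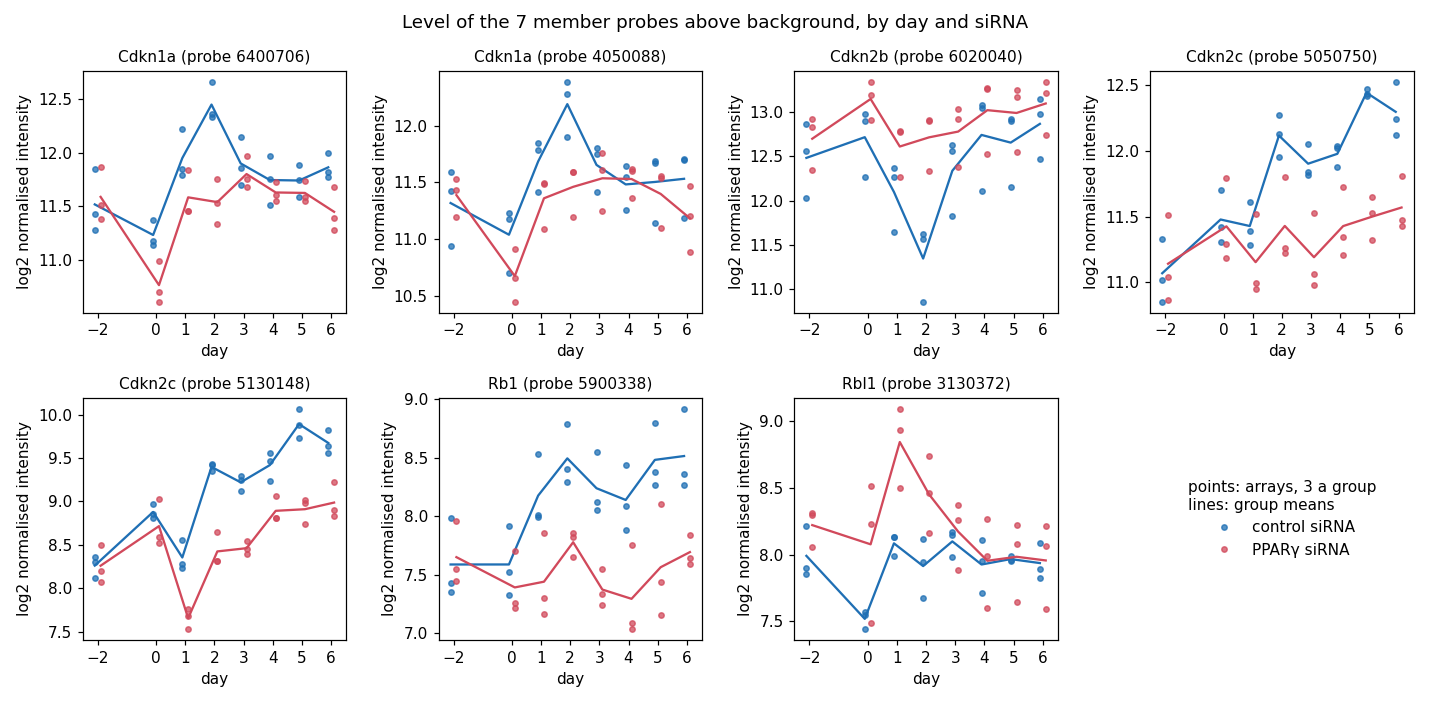
Log2 normalised intensity of the 7 probes above background against day, with 1 point per array (3 per group), control siRNA in blue, PPARγ siRNA in red, and lines through the group means. Under control siRNA Cdkn1a peaked and Cdkn2b dipped on day 2, with means of 12.45 and 11.35, while under PPARγ siRNA on that day they stood at 11.54 and 12.72.

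The promoters of the called inhibitors and of Rbl1 are shown because these genes moved in opposite directions. The table of RefSeq promoters used (build GRCm38.p6, 250 bases before to 50 after the start) held 8 promoters for 6 of the 8 genes, and where a gene had a pair of starts the one with the higher GC content is printed. Capitals mark matches on either strand to GGGCGG (a GC box) or TTTGAA (a cell cycle homology element).
Cdkn1a (chr17:29093519-29093818, plus strand): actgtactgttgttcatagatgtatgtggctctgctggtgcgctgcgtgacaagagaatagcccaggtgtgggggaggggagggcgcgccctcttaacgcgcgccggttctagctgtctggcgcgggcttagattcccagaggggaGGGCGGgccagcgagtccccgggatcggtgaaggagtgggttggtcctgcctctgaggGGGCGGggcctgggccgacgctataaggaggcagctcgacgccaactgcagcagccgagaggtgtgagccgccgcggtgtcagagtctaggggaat
Cdkn2b (chr4:89310983-89311282, minus strand): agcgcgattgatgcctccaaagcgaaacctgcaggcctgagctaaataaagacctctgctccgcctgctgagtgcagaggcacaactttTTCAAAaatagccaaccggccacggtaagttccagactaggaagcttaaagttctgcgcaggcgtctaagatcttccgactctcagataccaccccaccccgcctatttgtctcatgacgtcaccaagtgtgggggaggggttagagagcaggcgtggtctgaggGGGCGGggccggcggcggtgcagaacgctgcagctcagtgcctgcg
Cdkn2c (chr4:109666707-109667006, minus strand): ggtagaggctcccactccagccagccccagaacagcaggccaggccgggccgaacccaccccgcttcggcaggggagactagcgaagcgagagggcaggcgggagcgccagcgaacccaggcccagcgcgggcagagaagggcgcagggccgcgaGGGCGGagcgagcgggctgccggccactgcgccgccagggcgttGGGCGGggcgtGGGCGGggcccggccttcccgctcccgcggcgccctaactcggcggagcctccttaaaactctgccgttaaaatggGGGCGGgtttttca
Rbl1 (chr2:157204485-157204784, minus strand): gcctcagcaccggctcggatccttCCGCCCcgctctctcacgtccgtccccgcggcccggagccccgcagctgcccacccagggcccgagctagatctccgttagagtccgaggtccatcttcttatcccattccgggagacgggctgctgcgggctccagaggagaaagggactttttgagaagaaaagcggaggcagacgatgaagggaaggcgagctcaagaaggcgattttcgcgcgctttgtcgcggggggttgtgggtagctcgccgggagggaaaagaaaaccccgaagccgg
The GC content of these windows was 64.7% for Cdkn1a, 57.7% for Cdkn2b, 73.3% for Cdkn2c and 64% for Rbl1, against a median of 52.7% over 32851 promoters. For Cdkn1a and Cdkn2c the window was picked by its GC content, so it cannot be compared evenly with all promoters. Their unprinted windows had 54.7% and 44% GC and held GGGCGG 0 times each. GGGCGG occurred 2 times in the Cdkn1a window, 4 times in that of Cdkn2c and 1 time each in those of Cdkn2b and Rbl1, and 35.7% of all promoters hold it. TTTGAA occurred 1 time, on the opposite strand of Cdkn2b, against 17.9% of all promoters. Neither of the E2F motifs searched, TTTCCCGC (1.07% of all promoters) and TTTGGCGC (0.514%), was present in the 8 windows, and the nuclear receptor motif AGGTCA (16.3%) was present only in the other Cdkn2c window. Other forms of the E2F motif were not searched, for example TTTCGCGC, which stands in the Rbl1 window. A match of letters is a description and not a binding site, and which transcript start a probe reads was not examined.

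Cdkn1a, the inhibitor best known as a p53 target, rose transiently after rosiglitazone was added to control cells, and that peak was lower in PPARγ KD. Under control siRNA the brighter probe, 6400706, had means of 11.52 ± 0.29 on day -2, 11.23 ± 0.13 on day 0, 11.95 ± 0.23 on day 1, 12.45 ± 0.18 on day 2 and 11.90 ± 0.23 on day 3 (SD, n = 3), and then 11.74 to 11.86 on days 4 to 6. The steps from day 0 to 1 (0.72, SE 0.08, adjusted p = 1.06e-06), day 1 to 2 (0.50, adjusted p = 0.00469) and day 2 to 3 (-0.55, adjusted p = 0.000637) were called. Those steps were called for 9.06, 3.41 and 8.45% of all probes. Under PPARγ KD the probe fell from 11.59 ± 0.25 on day -2 to 10.77 ± 0.20 on day 0, by 0.82 (SE 0.08, adjusted p = 2.63e-08; 7.39% of all probes called). It then rose by 0.82 to day 1 (adjusted p = 3.03e-08; 8.38%) and had means of 11.54 to 11.80 on days 2 to 5.

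On day 2 the 3 control arrays of this Cdkn1a probe gave 12.35, 12.33 and 12.66 and the 3 PPARγ KD arrays gave 11.33, 11.53 and 11.75. The groups did not overlap. The difference was -0.91 (SE 0.08, adjusted p = 1.47e-09), which is 1.87-fold lower. On day 0 the control arrays gave 11.18, 11.14 and 11.38 and the PPARγ KD arrays 10.61, 10.70 and 10.99, again without overlap, and the difference of -0.47 was called (adjusted p = 0.0161). On days 3, 4 and 5 the differences were -0.10, -0.12 and -0.12 and the groups overlapped. On day 6 the difference was -0.41 with no overlap, but it missed the threshold (adjusted p = 0.132). The day 2 call of either Cdkn1a probe held without any one replicate, and the day 0 call was lost without each (-0.41 to -0.50).

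The other Cdkn1a probe, 4050088, gave the same order of events, with day 2 values of 12.39, 12.28 and 11.90 in control arrays and 11.59, 11.59 and 11.20 in PPARγ KD arrays. Its difference on day 2 was -0.73 (SE 0.08, adjusted p = 6.85e-07), and its day 0 difference of -0.37 missed the threshold (adjusted p = 0.947). Over the 16 group means both probes had a Pearson correlation of 0.98. Replicate 3 was the highest of the replicates for probe 6400706 and the lowest for probe 4050088 in each control group, which the replicate term of the fit takes up.

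Cdkn2b, an Ink4 inhibitor known to respond to TGF-β, showed the reverse course. Under control siRNA it had means of 12.48 ± 0.43 on day -2, 12.72 ± 0.39 on day 0, 12.10 ± 0.39 on day 1, 11.35 ± 0.42 on day 2, 12.34 ± 0.45 on day 3 and 12.66 to 12.87 on days 4 to 6 (SD, n = 3). It fell by 0.62 from day 0 to 1 (SE 0.09, adjusted p = 0.000679) and by 0.75 from day 1 to 2 (adjusted p = 7.52e-06). It rose by 0.99 from day 2 to 3 (adjusted p = 4.37e-09). The SDs of about 0.4 were carried by replicate 3, whose arrays read 10.86 to 12.47 under control siRNA, below both other replicates on each day. Under PPARγ KD the mean lay between 12.61 and 13.15 on the 8 days, and its change over time was called (limma F-test, adjusted p = 0.00642). Of the steps under PPARγ KD only that from day 0 to 1 was called (-0.54, adjusted p = 0.0121). That call was lost in 6 of 9 alternative settings.

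On day 2 the control arrays of Cdkn2b gave 11.56, 11.62 and 10.86 and the PPARγ KD arrays 12.90, 12.91 and 12.34. All 3 KD arrays were above all 3 control arrays. The difference of 1.37 (SE 0.09, adjusted p = 2.19e-13) is 2.58-fold, with replicate differences of 1.34, 1.29 and 1.48. On day 1 the difference was 0.51 (adjusted p = 0.0277), with control values of 12.27, 12.37 and 11.65 and KD values of 12.78, 12.79 and 12.27. These groups overlapped because replicate 3 was low in both. The day 2 call held without any one replicate, and the day 1 call was lost without each (0.46 to 0.56). Cdkn2b was higher in KD in 24 of 24 pairs of arrays, by 0.05 to 1.48, although the differences on days -2, 0, 3, 4, 5 and 6 (0.22 to 0.44) were not called.

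Cdkn2c, an Ink4 inhibitor known to accumulate in terminally differentiating cells, rose in control cells and stayed up. The brighter probe, 5050750, went under control siRNA from 11.07 ± 0.24 on day -2 and 11.43 ± 0.17 on day 1 to 12.12 ± 0.16 on day 2, 11.90 ± 0.13 on day 3, 11.98 ± 0.09 on day 4, 12.44 ± 0.03 on day 5 and 12.30 ± 0.21 on day 6 (SD, n = 3). Every day from 2 to 6 was called against day -2, with differences of 0.84 to 1.38 for this probe and 0.96 to 1.63 for probe 5130148. Such calls were made for 13.9, 4.32, 4.47, 5.18 and 6.24% of all probes on days 2 to 6. Of the steps, that from day 1 to 2 was called for both, at 0.69 (SE 0.10, adjusted p = 0.000523) and 1.04 (SE 0.12, adjusted p = 6.11e-06). Under PPARγ KD probe 5050750 had means of 11.14 to 11.57 and no change over time was called (adjusted p = 1, Benjamini-Hochberg adjusted p = 0.00049). Probe 5130148 did change over time under PPARγ KD (adjusted p = 3.20e-08). It went from 8.26 ± 0.22 on day -2 to 8.99 ± 0.21 on day 6 (SD, n = 3), higher by 0.73 (SE 0.12, adjusted p = 0.0163; 4.4% of all probes called), and that call was lost without any one replicate (0.71 to 0.74).

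In PPARγ KD Cdkn2c was lower in the later days. On day 5 the control arrays of probe 5050750 gave 12.48, 12.42 and 12.44 and the KD arrays 11.53, 11.32 and 11.65. The groups lay apart by more than the spread within either. The difference was -0.95 (SE 0.10, adjusted p = 2.46e-07), which is 1.93-fold lower, and held without any one replicate. For this probe the differences of -0.69, -0.71, -0.55, -0.95 and -0.73 on days 2 to 6 were all called, and those on days -2, 0 and 1 (0.07, -0.05 and -0.28) were not. Of 10 alternative settings, the day 4 call was lost in 6, and those of days 2, 3 and 6 in 3 each. Probe 5130148 was called on days 1, 2, 3, 5 and 6, with -0.70, -0.97, -0.76, -0.98 and -0.69, and missed on day 4 with -0.53. Its calls on days 1, 3 and 6 were lost in 6, 5 and 5 of those settings, and that on day 2 in 1. Its day 5 call was lost without replicate 1 (-1.02, adjusted p = 0.273) or replicate 2 (-0.81, adjusted p = 0.11). Its day 1 value under PPARγ KD was the lowest of its course, with arrays of 7.67, 7.53 and 7.76 against 8.59, 8.52 and 9.02 on day 0. This was a fall of 1.06 (SE 0.12, adjusted p = 3.97e-06; 8.38% of all probes called). Under control siRNA its mean also fell on that step, from 8.88 to 8.35, which was not called. The corresponding step of probe 5050750 under PPARγ KD (11.42 to 11.15) was not called. Both probes correlated at 0.93 over the 16 group means.

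The transcript of Rb1, the retinoblastoma gene itself, was lower in PPARγ KD on each of days 1 to 6. Under control siRNA it went from 7.59 ± 0.35 on day -2 and 7.59 ± 0.30 on day 0 to 8.18 ± 0.31 on day 1 and 8.49 ± 0.26 on day 2, and had means of 8.14 to 8.51 on days 3 to 6 (SD, n = 3). The step from day 0 to 1 was called (0.59, SE 0.10, adjusted p = 0.0331), as were days 1, 2, 3, 5 and 6 against day -2 (0.59 to 0.93; 8.49% of all probes called on day 1). The call of that step was lost in 6 of 9 alternative settings. Under PPARγ KD its means lay between 7.29 and 7.78 and no change over time was called (adjusted p = 1, Benjamini-Hochberg adjusted p = 0.00063). The differences on days 1 to 6 were -0.74, -0.72, -0.87, -0.85, -0.92 and -0.82 (SE 0.10 each), all called, while those on days -2 and 0 were 0.06 and -0.20. The calls on days 1, 2, 4 and 6 were each lost in 3 of 10 alternative settings. Those on days 3 and 5 were each lost in 2.

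On day 3 the control arrays of Rb1 gave 8.05, 8.12 and 8.55 and the PPARγ KD arrays 7.33, 7.24 and 7.54, without overlap (adjusted p = 8.40e-06). Groups did not overlap on any of days 1 to 6. Replicate 3 was the highest in every control group and in every KD group; without replicate 2 the day 3 difference was -0.86 and the call was lost (adjusted p = 0.164), while the difference over days -2 to 6 was called without any one of the replicates. Its deposited intensities were low, between 178.7 and 462.3 over the 48 arrays, although each was above background.

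Rbl1, which encodes the p107 pocket protein known to increase in cycling cells, was the retinoblastoma family member whose transcript was higher in PPARγ KD. Under control siRNA it had means of 7.99 on day -2, 7.52 on day 0, 8.08 on day 1 and 7.91 to 8.10 on days 2 to 6. No change over time was called there (limma F-test, adjusted p = 1, Benjamini-Hochberg adjusted p = 0.0189). Under PPARγ KD its means were 8.22 ± 0.14, 8.08 ± 0.53, 8.84 ± 0.31, 8.45 ± 0.29 and 8.17 ± 0.26 on days -2 to 3 (SD, n = 3), and then 7.95 to 7.98. This change over time was called (adjusted p = 0.0187). The change of the difference between KD and control over the days was not called for Rbl1, and passed with Benjamini-Hochberg (limma F-test, adjusted p = 0.00597). On day 1 the control arrays gave 8.13, 8.13 and 7.99 and the KD arrays 8.94, 9.09 and 8.50. The groups did not overlap, but the difference of 0.76 (SE 0.14) missed the Bonferroni threshold (adjusted p = 0.0809) and passed with Benjamini-Hochberg (adjusted p = 0.000105; 10.4% of all probes). On day 0 the KD arrays gave 8.23, 8.51 and 7.49 against 7.57, 7.54 and 7.44, so replicate 3 did not show the difference of the other replicates. On days 3 to 6 the differences were 0.02 to 0.07.

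**Figure D3:**
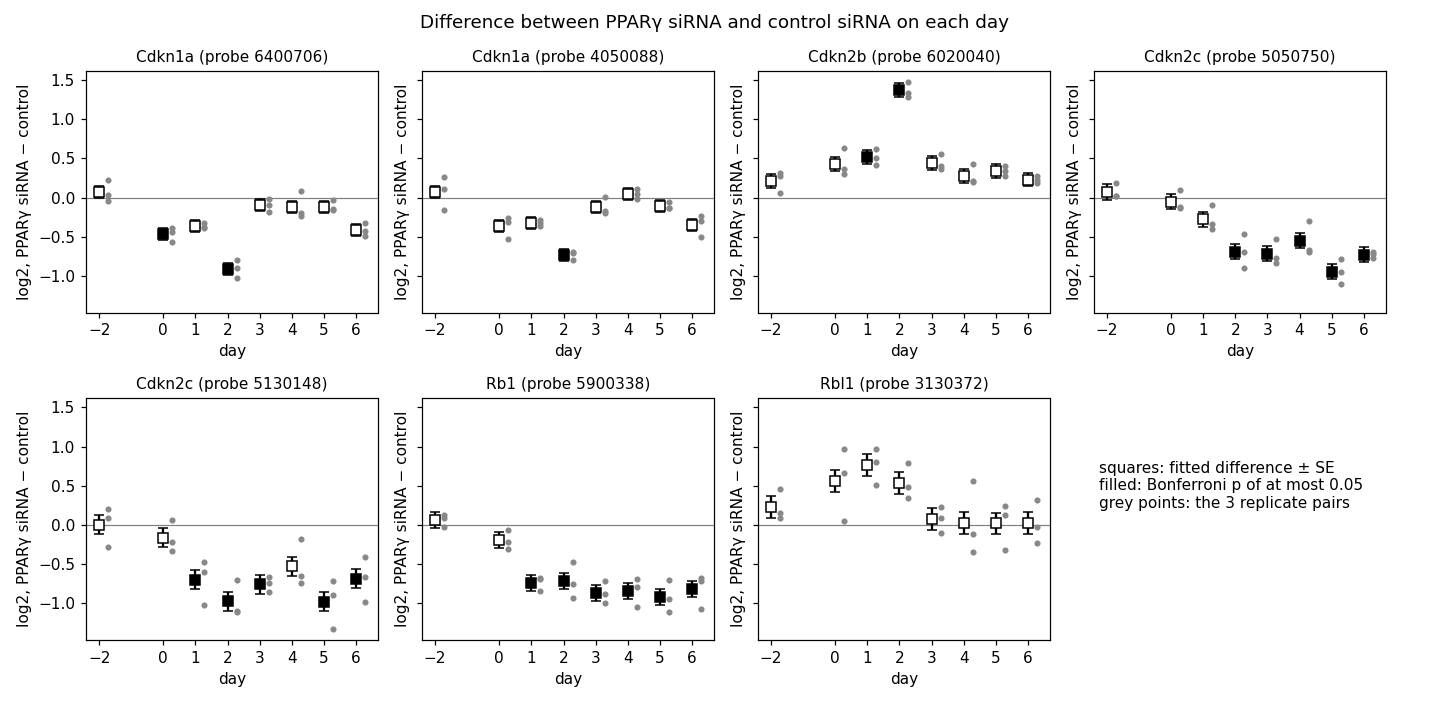
Difference between PPARγ siRNA and control siRNA (log2) against day for the 7 probes, as squares with SE, filled where the Bonferroni adjusted p was at most 0.05, with the 3 replicate pairs in grey. The largest difference of Cdkn1a (-0.91) and of Cdkn2b (1.37) fell on day 2, and Rb1 was filled on days 1 to 6.

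Whether a difference changed with time was tested directly. The differences on days 4 to 6 minus those on days 0 to 2 were called for Cdkn1a probe 6400706 (0.36, SE 0.06, adjusted p = 0.0355) and for Cdkn2b (-0.49, SE 0.07, adjusted p = 0.00134), where 3.63% of all probes were called. Both differences were closer to 0 on the later days, and both calls were lost without any one replicate, at 0.35 to 0.39 and -0.51 to -0.46. Rbl1 had the largest such value, -0.60 (SE 0.11), with replicates of -0.61, -0.54 and -0.65, and was not called (adjusted p = 0.152). Cdkn2c at -0.40 and -0.12 and Rb1 at -0.31 were not called either. Against day -2, the difference on day 2 had changed by -0.98 for Cdkn1a probe 6400706 (SE 0.11, adjusted p = 2.62e-06) and by 1.15 for Cdkn2b (SE 0.13, adjusted p = 9.64e-07; 5.97% of all probes called). On day 5 it had changed by -1.02 for Cdkn2c probe 5050750 (SE 0.14, adjusted p = 0.000208) and by -0.98 for Rb1 (SE 0.14, adjusted p = 0.00138; 2.62%). Over all 7 later days, the change was called for 5 of the 11 probes, both of Cdkn1a and those of Cdkn2b, Cdkn2c (5050750) and Rb1, and for 7.11% of all probes. In a separate fit to the 18 arrays of days 4 to 6, 3 of the 11 probes were called, Cdkn2c at -0.74 (SE 0.06, adjusted p = 1.61e-05) and -0.73 (SE 0.08, adjusted p = 0.000662) and Rb1 at -0.86 (SE 0.07, adjusted p = 5.90e-06), with 5.31% of all probes called. The call of Rb1 held without any one replicate, and those of Cdkn2c were lost without replicate 2 (-0.69, adjusted p = 0.089, and -0.59, adjusted p = 0.493), that of probe 5130148 also without replicate 1 (-0.73, adjusted p = 0.138).

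Cdkn1b, Cdkn1c and Rbl2, the p27, p57 and p130 transcripts, were not measurable. Intensities were 104.1 to 162.7 and 65.4 to 109.2 for the Cdkn1b probes, 90.2 to 131 for Cdkn1c and 82.8 to 129.9 for Rbl2, against array medians over all probes of 105.1 to 141.7. The lowest detection p was 0.017 for Cdkn1b probe 6450044, which was under 0.05 on 8 of 48 arrays. No fold or direction is given for these, and a signal at background does not show that a transcript was absent.

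As a description over the 16 group means, which share arrays, scaling and time course, Cdkn1a (6400706) and Cdkn2b ran opposite to each other (Pearson r = -0.75) and Cdkn2c (5050750) and Rb1 ran together (r = 0.86). Rbl1 correlated with Cdkn2c at -0.38 and -0.63 and with Cdkn1a at 0.01 and 0.05. Among the 9215 or 9216 other probes above background on at least 24 arrays, those nearest to Cdkn1a were Mgat4b (r = 0.93), Phldb1 (0.93) and Zwint (0.91). Those nearest to Cdkn2b were Ripk1 (0.95), Pdzrn3 (0.95) and Vezf1 (0.94). Near the profile of Cdkn2c were Abcd2 (0.96) and Hsd11b1 (0.96), a steroid-activating enzyme, and near that of Rb1 were G0s2 (0.96), an inhibitor of lipolysis, and Tex2 (0.95). Rbl1 was most like Atp10a (0.92), Pold3 (0.90), a DNA polymerase subunit, and Diap3 (0.89).

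The rest of the pathway was read from gene lists. Of 24 probes for CDKs and cyclins, 7 were higher and 1 lower in PPARγ KD over days -2 to 6, with Ccnd1 (cyclin D1) at 0.37 and Ccnb1 (cyclin B1) at 0.36 the largest and Cdk2 at -0.17 (SE 0.03, adjusted p = 0.00488) the probe that was lower. The median of the list's 21 probes above background was 0.13. None of the 16 probes for E2F and DP factors, a list that includes partners of the retinoblastoma family, passed over days -2 to 6. In that limma fit 7 had an unadjusted p under 0.05 and 6 passed with Benjamini-Hochberg. The 16 probes covered 9 of the 10 genes listed, with none for E2f4, and only 6 were above background on at least 3 arrays. On day 2 alone, 1 of them was called lower in PPARγ KD (8.92% of all probes called). None of the 8 for the MuvB complex and B-Myb, with 4 above background, passed over days -2 to 6 either (5 unadjusted and 4 with Benjamini-Hochberg). E2f1 had a difference of 0.17 (SE 0.03, adjusted p = 0.104). Cdkn2d, a further Ink4 gene, was higher by 0.24 (SE 0.04, adjusted p = 0.014). None of 11 probes for p27 turnover passed (7 unadjusted and 6 with Benjamini-Hochberg).

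Part of the genes of DNA synthesis and mitosis were higher in PPARγ KD. Of 36 probes for S phase E2F targets 8 were higher and 0 lower, led by Pole at 0.39 and Lig1 at 0.36, and of 24 for mitosis genes 11 were higher and 0 lower, led by Bub1b at 0.46 and Tpx2 at 0.41. On day 0 the counts were also 8 and 11, and the medians of the probes above background were 0.48 and 0.85. On day 2 they were -0.18 and -0.07 with 0 probes called in either list (16 and 10 at an unadjusted p under 0.05, 10 and 7 with Benjamini-Hochberg). In control cells 12 of the S phase and 13 of the mitosis probes fell from day -2 to day 0 (5.04% of all probes), and 9 and 6 were called above day -2 on day 2, when 13.9% of all probes were called in either direction. Whether these moved with Rbl1 or Cdkn1a for a shared reason was not tested.

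Lists of known regulators were set beside Cdkn1a and Cdkn2b. Of 27 probes for p53 response genes, 16 of them above background on at least 3 arrays, 3 were higher and 0 lower over days -2 to 6. Among those higher were Plk2 at 0.43 and Fas at 0.25. In that limma fit 16 probes of the list had an unadjusted p under 0.05 and 12 passed with Benjamini-Hochberg. The median of the probes above background was 0.09, and uncalled probes differed in both directions. Of all probes, 6.37% were higher and 6.74% lower in that comparison. On day 2, where the Cdkn1a difference was largest, 2 probes of the list were higher and 0 lower. Both Cdkn1a probes were lower, and a part of p53 in that was not tested. Of 10 probes for TGF-β response genes 2 were higher (both Tgfbi, 0.49 and 0.47) and 1 lower (Id1, -0.23) over days -2 to 6. On day 2, when 8.92% of all probes were called, 3 were higher and 0 lower. On day -2 and on day 0, 0 were higher and 1 lower, and on day 3, 2 were higher and 0 lower. Of 17 probes for glucocorticoid and cAMP response genes 1 was higher (Sgk, 0.24) and 1 lower (Zbtb16, -0.33, above background on 4 arrays), and in control cells 8 rose from day -2 to day 0 (4.01% of all probes), the period with dexamethasone and IBMX.

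**Figure D4:**
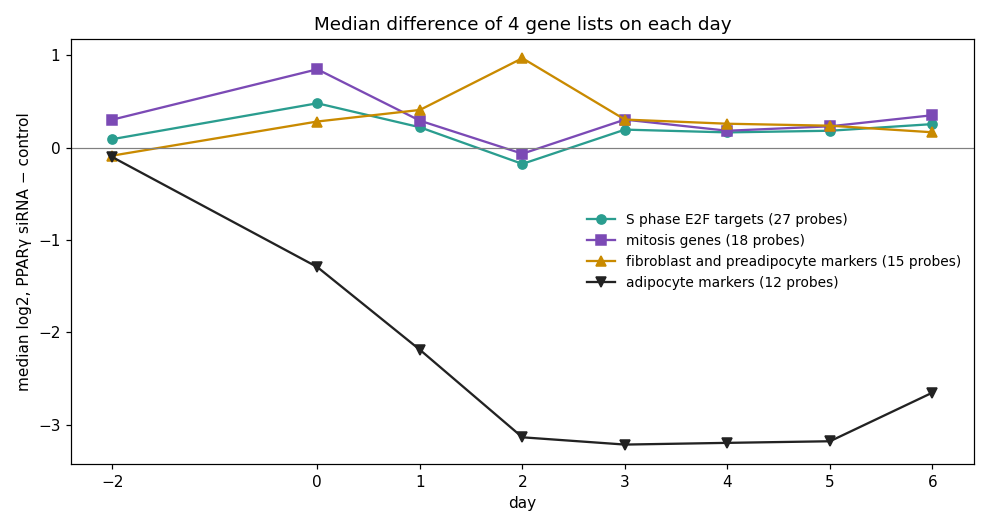
Median log2 difference between PPARγ siRNA and control siRNA on each day for 4 gene lists, over the probes of each list above background on at least 3 arrays. Mitosis and S phase genes were highest on day 0 (0.85 and 0.48), fibroblast markers on day 2 (0.97), and adipocyte markers were below -1.2 from day 0 on.

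Markers of differentiation were set beside the members. On days 3 to 5 the adipocyte probes above background kept median differences of -3.22, -3.20 and -3.18. Those of the fibroblast and preadipocyte probes above background were 0.30, 0.26 and 0.24 on these days, against 0.97 on day 2. On day 6 the medians of the adipocyte and fibroblast lists were -2.65 and 0.17. The differences of Cdkn1a and Cdkn2b were smaller on days 3 to 5 than on day 2. On day 2, when Cdkn2b was higher and Cdkn1a, Cdkn2c and Rb1 lower in PPARγ KD, 10 of 13 adipocyte marker probes were lower (median of those above background -3.14) and 10 of 16 fibroblast and preadipocyte probes higher (median 0.97). The summed intensity of the adipocyte list ranged from 10275.7 to 169102 over control arrays and from 4296.1 to 33708.4 over PPARγ KD arrays, with Cidec (-4.15) and Adipoq (-3.74) the furthest apart over days -2 to 6 and each below the detection threshold on some arrays. That of the fibroblast list ranged from 68050.3 to 220416 and from 81745.9 to 220198, with Fn1 (0.63) and Acta2 (0.50) the furthest apart. The part of the mix of cell states in the members' differences was not tested.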

How the data were processed

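Total RNA of 3T3-L1 cells was measured on 48 Illumina MouseRef-8 v1.1 arrays. Per the file headers and methods, the authors deposited BeadStudio 3.3.7 mean bead intensities without normalization, with bead SD, bead number and a detection fraction equal to 1 minus the detection p-value. From these, background was corrected in R 4.3.3 with limma 3.58.1 (normexp on detection p-values, offset 16), arrays were scaled on rank-invariant probes (scale factors 0.730 to 1.58), and log2 values were fitted (lmFit, eBayes) with 1 mean for each combination of siRNA and day plus a block term for the replicate number. Bonferroni adjustment over 24613 probes at 0.05 defined calls, following the study's batch-removing analysis of variance with that correction. The number of arrays and the signal over background limit the precision.

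Replicate numbers were taken to pair arrays because deviations from group means of same-numbered arrays correlated at 0.544 to 0.914 in all 24 pairs, over the 10567 probes above background on at least 3 arrays. Groups came from sample titles. The members, gene lists and tests were chosen with earlier results of these data known. Named were all member probes, the 3 probes most correlated with each member's brightest probe (not reported for members at background, whose profiles are noise, and for some other probes not reported here), Pparg, and in each list the 2 called probes that differed most upward and downward. The test of the change of a difference over days, the steps under PPARγ KD and the promoter motifs were added after the data were seen. Fits were tested on simulated data. Alternatives covered normalization, background correction, offset, a filter on dim probes, the block, the adjustment and leaving out each replicate. BeadChips are not named in the deposited table and were not used as a block. Figures were drawn with matplotlib 3.10.9.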

Additional observations from a re-analysis of the deposited data

Results flagged for a closer look

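The difference between PPARγ KD and control changed between days 0 to 2 and days 4 to 6 by the test of that change for Cdkn1a probe 6400706, by 0.36 on the log2 scale (SE 0.06, adjusted p = 0.0355, replicates 0.40, 0.38 and 0.32), with 3.63% of all probes called. The other Cdkn1a probe gave 0.34 and was not called (adjusted p = 0.139). The same test was passed by Cdkn2b, with -0.49 (SE 0.07, adjusted p = 0.00134, replicates -0.47, -0.46 and -0.55).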

How the results depend on the processing

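Counts are of the 11 member probes. Over days -2 to 6, 7 probes were called, with 5 to 7 without one replicate, 6 with the replicate block by day (Rbl1 was lost) and 3 with no replicate block. Rbl1 was also lost with quantile normalization (adjusted p = 0.0687) and without replicate 1 or replicate 2 (adjusted p = 1 each, differences 0.29 and 0.14), and Cdkn1a probe 4050088 without replicate 1 (adjusted p = 0.657). Over days 4 to 6 the count of 3 became 5 with Benjamini-Hochberg and 1 to 3 without one replicate, with 1 (Rb1) without replicate 2. Of 88 probe and day values 21 were called, against 2 with no replicate block, 35 with Benjamini-Hochberg, 15 with the replicate block by day, and 5 to 16 without one replicate. The 2 probes whose difference changed between early and late days became 1 with no background correction, an offset of 50 or the replicate block by day (Cdkn1a lost), 6 with Benjamini-Hochberg, 0 with no replicate block and 0 without any one replicate, at differences of 0.35 to 0.39 for Cdkn1a and -0.51 to -0.46 for Cdkn2b. The change over time under control siRNA was called for 6 probes, and for 3 with no replicate block. That under PPARγ KD was called for 5, for 1 with no replicate block and for 2 to 3 without one replicate. The 12 called control steps became 1 with no replicate block, 22 with Benjamini-Hochberg and 4 to 5 without one replicate. The change of the difference over all days was called for 5, for 0 with no replicate block and for 0 to 2 without one replicate. Fewer arrays and, with no replicate block, the offset of replicate 3 left in the residual are part of the construction of these alternatives. Among the 82 single values of the 7 probes above background that were recomputed (daily values only where called), 1 changed sign, Rbl1 over days 4 to 6, which went from 0.02 to -0.15 without replicate 2 and to 0.18 without replicate 3 and was never called. A BeadChip block was not run.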
